A study of Homo sapiens with 4 samples.

Results

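BRPF3 regions found in hydroxyurea-treated cells alone were chosen by the peak calls themselves. Peaks of 3 BRPF3 lists on chromosomes 1 to 22 were merged where they shared at least 1 bp, and a merged region under 8000 bp wide was kept when it held a peak of the hydroxyurea (HU) list and of no other. The rule gave 1110 HU-only regions out of 13623 merged regions. Each of them held exactly 1 HU peak. They made up 8.51% of the 13040 HU peaks on these chromosomes, and since the rule is this very contrast, the share describes the selection and nothing is read from it. For comparison, the same rule applied to the list of asynchronous cells gave 671 asynchronous-only regions, 5.26% of its 12759 peaks.

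The lists come from chromatin immunoprecipitation followed by sequencing (ChIP-seq), in which DNA bound by a protein is recovered with an antibody and read. All libraries were made from RKO, an established human colon carcinoma line, with a homemade rabbit antibody against BRPF3, as the titles and the antibody field state. A description field of these libraries names other BRPF proteins instead. The asynchronous cells (AS) were untreated and growing normally. The mimosine cells (M) had received 0.5 mM mimosine for 22 h. The HU cells were given the same mimosine treatment, were released from it for 3 h and were then exposed to 3 mM HU for 1 h 30 min. A rabbit IgG library from this last condition served as the control for all 3 lists, so the IgG control matches the treatment of the HU cells but not that of the asynchronous or mimosine cells. The HU cells differ from the asynchronous cells by the mimosine block, the release and the HU, and from the mimosine cells by the release and the HU. The effects of these steps cannot be told apart. No BRPF3 library had a replicate, so the differences below are between single libraries and carry no p-value. The 95% intervals given for shares are exact (Clopper-Pearson) and stand for error of counting alone, and peaks of a library are not replicates of a condition. The depth behind each list is unknown.

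BRPF3 is a scaffold protein of the MYST family of histone acetyltransferase complexes. It holds the catalytic subunit, for which HBO1 (KAT7) is its best-known partner, together with small accessory subunits, and its reader domains contact modified histone tails. HBO1 acetylates histone H3 and is tied both to transcription and to the licensing and firing of replication origins. Mimosine halts cells around the entry into S phase, while HU starves replication forks of deoxynucleotides, so cells that are released from mimosine and then given HU enter S phase and stall there.

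Most HU-only regions were weak and narrow peaks. The authors' score starts at 50 in these lists and is read here as 10 times the negative log10 of a p-value. It had a median of 65.6 over the 1110 regions (interquartile range 56.7 to 83.8). Of these, 949 (85.5%) scored under 100. They stood at a median of percentile 6.92 of the HU list (interquartile range 3.32 to 11.7). Their median width was 1112 bp (interquartile range 884.0 to 1452 bp), against 3077 bp over the other 11930 HU peaks. In total they covered 1388 kb, out of 42.6 Mb covered by the HU list. The 671 asynchronous-only regions looked alike within their own list, with a median score of 65.5 and a median width of 966 bp. The 1966 HU peaks in regions shared with asynchronous cells but not with mimosine cells were stronger, with a median score of 115.0 and a median width of 1640 bp.

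The share of HU peaks without a partner fell steeply with the score. Among the 622 HU peaks scoring from 50 to under 60, 395 were HU-only (63.5%, 95% interval 59.6 to 67.3%). The share was 52.8% from 60 to 70, 44.9% from 70 to 80, 31.9% from 80 to 100 and 13.9% from 100 to 150. It came to 4.03% from 150 to 200 and 1.38% from 200 to 300. Only 2 of the 8571 HU peaks scoring 300 or more were HU-only. In each of the same bands the asynchronous list had a lower share of peaks of its own. It was 44.3% in the lowest band, 22.4% from 80 to 100 and 9.28% from 100 to 150. At 300 or more the contrast rested on 2 HU-only peaks and 1 asynchronous-only peak. The HU list covered 42.6 Mb and the asynchronous list 38.2 Mb, so the 2 lists did not offer each other the same partner length. Whether this bears on the difference in shares was not tested. Both lists were scored against 1 IgG library but at depths that are unknown, so equal scores in them need not mean equal enrichment.

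**Figure D1:**
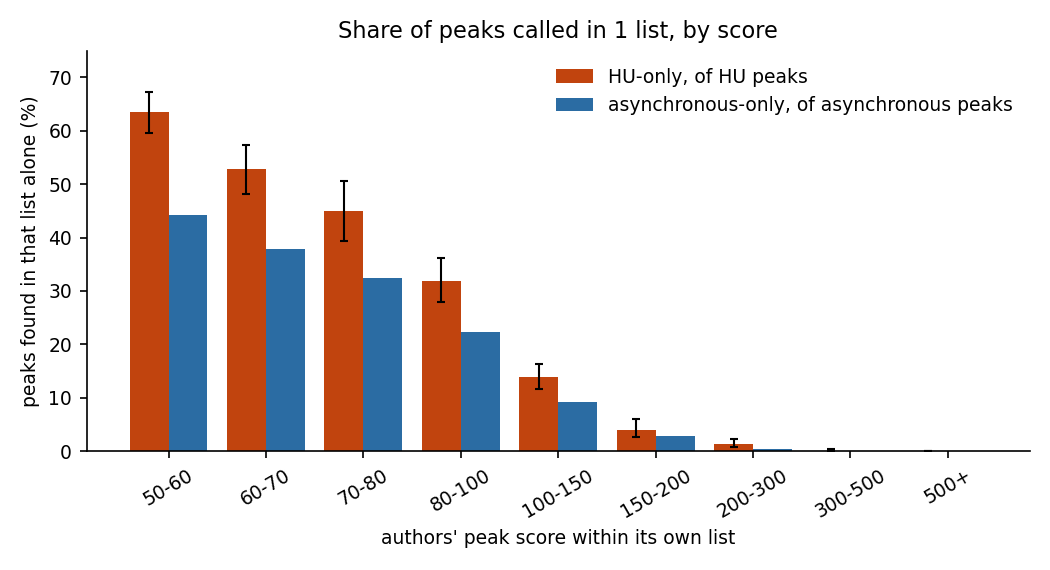
Share of HU peaks that were HU-only (orange, with exact 95% intervals) and of asynchronous peaks that were asynchronous-only (blue, no interval drawn), in bands of the authors' score within each list. Both fall as the score rises, from 63.5% and 44.3% in the lowest band.

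Even at like scores, HU-only regions below a score of 150 were narrower than the HU peaks with a partner. From 50 to 60 the median widths were 953 bp for HU-only regions and 1098 bp for the other HU peaks. From 80 to 100 they were 1222 bp and 1454 bp, and from 100 to 150 they were 1510 bp and 1676 bp. From 150 to 200 the order turned, with 2118 bp against 1935 bp, but only 24 HU-only regions lay in that band. From 200 to 300, with 15 HU-only regions, the medians were 2533 bp and 2249 bp, and the 2 bands above held 1 HU-only region each. A narrower peak also has less length with which to touch a peak of another list, so width is part of what the rule acts on. Among the HU-only regions, 435 were under 1000 bp wide, 101 reached 2000 bp and 14 reached 3000 bp.

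**Figure D2:**
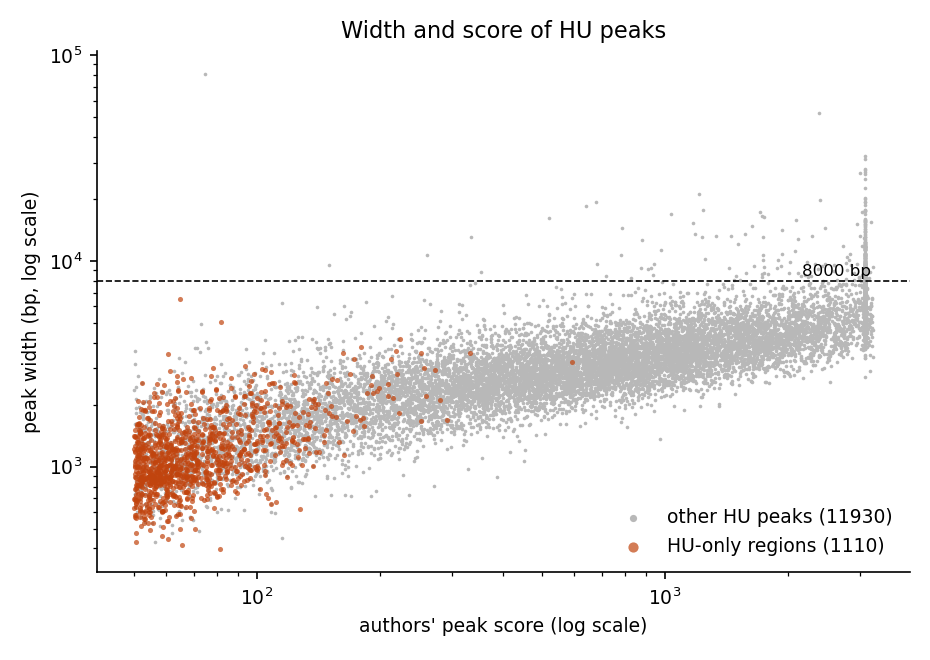
Width against the authors' score for the 1110 HU-only regions (orange) and the other 11930 HU peaks (grey), both axes logarithmic, with the width limit of 8000 bp as a dashed line. Most HU-only regions lie at the low end of both axes, and all lie below the limit.

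The width limit removed nothing, because 0 HU-only regions were 8000 bp or wider. The widest, chr1:145221023-145227563 (all positions are in hg19, counted from 1), spanned 6541 bp with a score of only 65.0. It was followed by chr12:6958767-6963828 at 5062 bp with a score of 81.7, and by chr3:5062944-5067128 at 4185 bp with a score of 225.0. The last of the 5 widest were chr12:45625154-45628981 at 3828 bp (score 180.4) and chr8:144300041-144303705 at 3665 bp (score 219.6). Width and score thus did not go together among the widest regions.

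The limit of 1 bp of overlap was sharp for few peaks. Just inside it, chr18:3265262-3266269 (1008 bp, score 83.4) lay 37 bp from the nearest asynchronous peak. The region chr7:63251541-63252164 (624 bp, score 128.0) lay 48 bp from a mimosine peak and only 2 bp from another HU peak. The region chr16:74696751-74698299 (1549 bp, score 118.0) lay 49 bp from a mimosine peak. Just outside it, the HU peak chr13:33108398-33110721 (2324 bp, score 125.0) shared 9 bp with the other lists, chr9:21330036-21331246 shared 16 bp and chr1:210003538-210004482 shared 19 bp. In all, 15 of the 11930 HU peaks with a partner shared under 100 bp with it. Counting an HU peak as unshared unless one other list covered at least 50% of it raised the number of HU-only peaks from 1110 to 1258.

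Some HU-only regions scored higher than the rest, though most of these still stood low in the HU list. Of the 1110, 161 scored 100 or more, 41 scored 150 or more and 17 scored 200 or more. The counts were 96, 24 and 6 among the 671 asynchronous-only regions. The shares scoring under 100 were alike in the 2 groups, at 85.5% and 85.7%. The 161 HU-only regions stood at a median of percentile 18.2 of the HU list (interquartile range 16.4 to 21.4). The highest, chr4:77702472-77705700, had a score of 591.0 and a width of 3229 bp, at percentile 52.3 of the HU list. It stood alone: the nearest asynchronous peak lay 163 kb away, the nearest mimosine peak 164 kb away, and the nearest HU peak, 91.2 kb away, was itself a weak HU-only region with a score of 59.1. The next was chr3:67052727-67056273, 3547 bp wide with a score of 333.0. This region had a different setting. Only 90 bp separated it from another HU-only region of 1344 bp (score 122.0), which in turn adjoined an HU peak of 4217 bp (score 1925.0) at a site shared by all 3 lists. There the asynchronous peak covered 3708 bp and the mimosine peak 2679 bp, and neither list had a peak over the 2 HU-only regions beside it.

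The other 8 of the 10 highest-scoring regions split between isolated sites and flanks. Far from any other list lay chr3:190231155-190233361 (score 259.8), at 813 kb from both, and chr11:94439240-94440906 (score 253.0), at 103 kb from an asynchronous peak. The region chr7:151430946-151434517 (3572 bp, score 252.0) was 101 kb from both lists and 5.19 kb from another HU-only region. The region chr1:173607129-173609245 (score 280.4) lay 74.1 kb from an asynchronous peak, and chr3:101620384-101623322 (score 273.0) lay 21 kb from one. Close to shared sites lay chr1:148603652-148605328 (score 293.0), at 3818 bp from an asynchronous peak but 44.8 kb from a mimosine peak. The region chr12:7027994-7031014 (score 256.0) lay 2138 bp from an asynchronous peak and 254 bp from the next HU peak. The wide region chr3:5062944-5067128, already named, lay 649 bp from an asynchronous peak and 428 bp from an HU peak. These positions are given without genes, because no gene annotation of this build was used here.

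**Figure D3:**
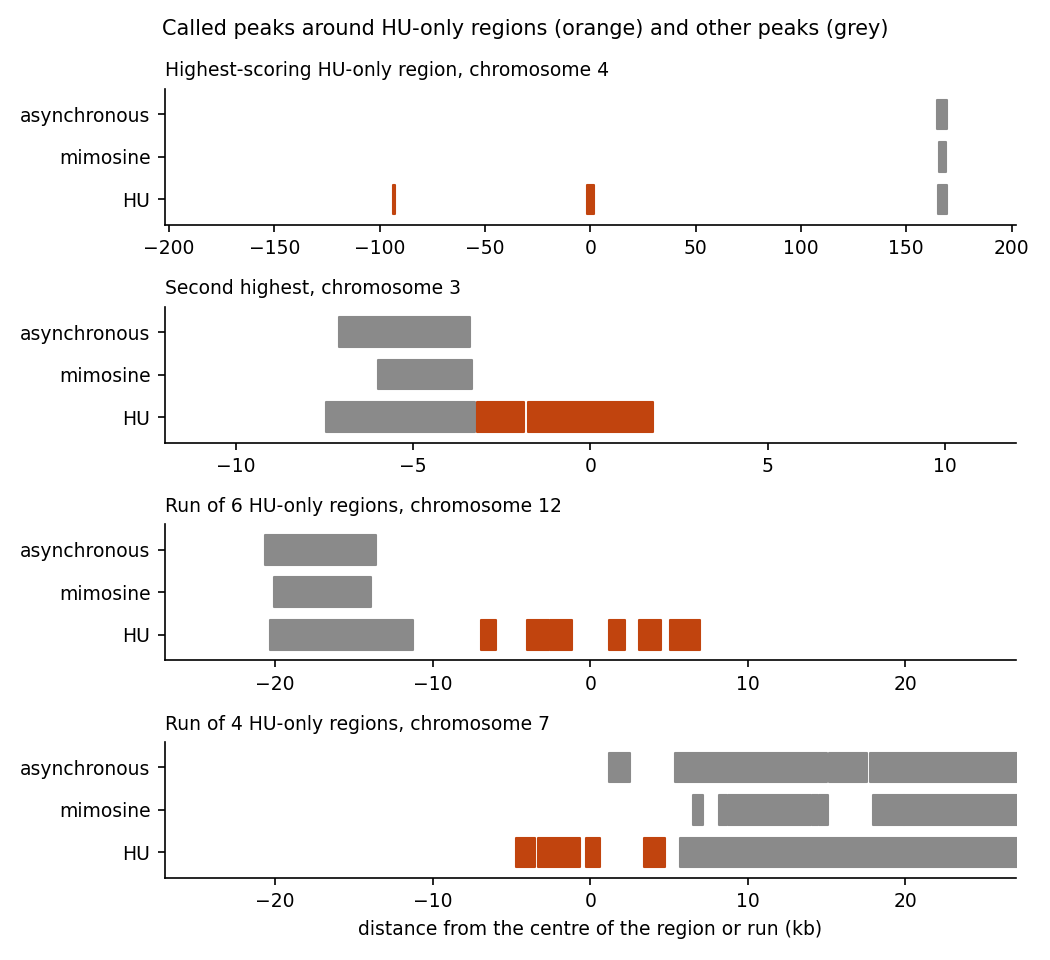
Called peaks of the 3 lists around the 2 highest-scoring HU-only regions and the 2 longest runs of HU-only regions, with distance from the centre of the region or run in kb on a scale of its own in each panel; HU-only regions are orange and all other peaks grey. In the chromosome 12 run, 2 of the 6 regions lie 66 bp apart and look joined. The chromosome 4 region stands apart, while the other 3 places lie beside a site held by all lists.

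HU-only regions lay at widely varying distances from the peaks of the other lists. Their median gap to the nearest peak of the other lists was 15.6 kb (interquartile range 2.72 to 54.1 kb). Within 5 kb of such a peak lay 364 of them (32.8%, 95% interval 30 to 35.6%), and 161 (14.5%) lay within 1 kb. When all 3 lists were limited to scores of 100 or more, the median gap was 25.8 kb and 22.8% lay within 5 kb. In the full lists, at the other end, 35 lay more than 500 kb away and 14 more than 1000 kb. The nearest peak was an asynchronous one for 1005 regions and a mimosine one for 104. The median gap was 15.6 kb to an asynchronous peak and 21 kb to a mimosine peak, in lists of 12759 and 11235 peaks. For the asynchronous-only regions the median gap to the other lists was 18.1 kb, and 29.7% (26.2 to 33.3%) lay within 5 kb.

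Other HU peaks, weak ones included, lay farther from the next region. Measured alike for every class, the gap to the next merged region had a median of 12.2 kb for HU-only regions, and 422 of the 1110 (38.0%, 35.2 to 40.9%) had one within 5 kb. The median was 15.8 kb for asynchronous-only regions, 25.3 kb for regions of asynchronous and HU cells, and 29.0 kb for regions in all 3 lists. The last 2 classes had a region within 5 kb in 19.8% and 16.7% of cases. Among HU peaks scoring under 100, 36.7% (33.6 to 39.8%) of the 949 HU-only ones had a region within 5 kb, against 22.8% (20.2 to 25.5%) of the 975 with a partner. The 161 HU-only regions scoring 100 or more were closer still, with a median gap of 8.36 kb and 46.0% (38.1 to 54.0%) within 5 kb. A wide or merged site takes in the peaks beside it, so a peak stays a region of its own only if it touches none, and the gap of shared regions carries this too. From peak to peak within the HU list, 37.1% (34.3 to 40.0%) of the 1110 HU-only regions lay within 5 kb of another HU peak. The share was 27.0% (24.2 to 29.9%) for the 975 weak HU peaks with a partner. The 949 weak HU-only regions had a median score of 62.6 and these 975 peaks one of 72.3.

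**Figure D4:**
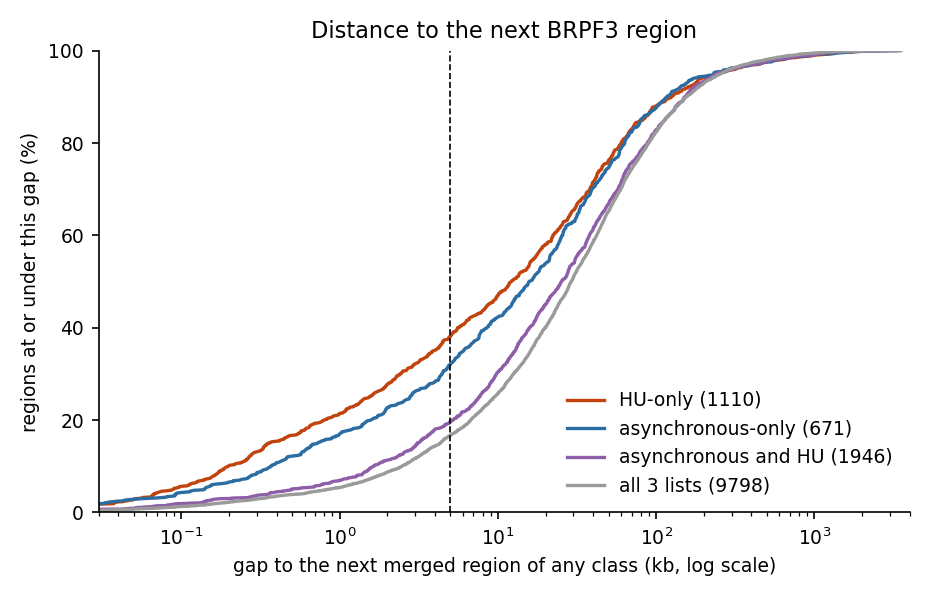
Cumulative share of regions by the gap to the next merged region of any class (kb, logarithmic axis; the dashed line marks 5 kb). The curve of HU-only regions lies highest at 5 kb, at 38.0%, above asynchronous-only regions and both classes of shared regions.

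At a larger scale HU-only regions were placed like the others. Within 500 kb on either side of a region's centre lay a median of 9 further merged regions for HU-only regions (interquartile range 5 to 15). The median was also 9 around asynchronous-only regions, around regions of asynchronous and HU cells and around regions in all 3 lists. Only 27 HU-only regions (2.43%) had no further region in that window, against 2.03% of the other HU peaks. The difference in spacing was therefore seen between neighbouring regions and not in the number of regions within 500 kb.

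Within the HU list itself, HU-only regions lay close to another peak more often than other HU peaks did. Of the 1110 HU-only regions, 227 (20.5%, 18.1 to 22.9%) lay within 1 kb of another HU peak. The share was 13.5% (11.5 to 15.8%) for the 975 other HU peaks scoring under 100 and 6.58% (6.14 to 7.04%) for all other HU peaks. Among the 671 asynchronous-only regions, 96 (14.3%) lay within 1 kb of another asynchronous peak. When peaks within 1 kb were merged, 891 HU-only regions were left, and with 5 kb 706. The same merging left 561 and 461 asynchronous-only regions.

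The site next to an HU-only region was most often one held by all 3 lists. The next region was held by all 3 lists for 779 of the 1110 (70.2%), by asynchronous and HU cells for 140 (12.6%), by HU cells alone for 139 (12.5%) and by asynchronous cells alone for 47 (4.23%). These shares are near the make-up of all merged regions, of which 71.9%, 14.3%, 8.15% and 4.93% belong to those classes. HU-only neighbours lay above theirs. Where the next region lay within 5 kb, it was HU-only for 17.1% of the HU-only regions and 19.3% of the regions in all 3 lists. It was so for 11.4% of the regions of asynchronous and HU cells and 8.41% of the asynchronous-only regions. At that range HU-only neighbours were thus not particular to HU-only regions. Next to the 671 asynchronous-only regions, 8.79% of the next regions were HU-only, near the 8.15% they make up of all. Within 5 kb of an asynchronous-only region lay 26 HU-only regions (2.34%). The like share over all HU peaks was not computed, so nothing is read from this count.

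The neighbouring shared sites stood high in both lists. In 310 cases the next region lay within 5 kb and held 1 asynchronous and 1 HU peak. Each case pairs an HU-only region with its next site, so a site beside more than 1 HU-only region can enter more than once. The HU peaks in these cases had a median width of 3512 bp and a median percentile of 69.8 of the HU list. The values were 3059 bp and 54.3 over all 11357 sites with 1 asynchronous and 1 HU peak. The asynchronous peaks at these sites stood at a median percentile of 65.8, against 53.3 over all. The HU peak was the wider in 79.7% of the 310 cases, with a median HU to asynchronous width ratio of 1.09, against 73.4% and 1.09 over all. The 154 like cases next to an asynchronous-only region had a ratio of 1.03, and the HU peak was the wider in 64.9% of them. Their sites stood high as well, with a median HU width of 3590 bp and median percentiles of 66.0 in the HU and 69.1 in the asynchronous list.

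The edges of these neighbouring sites are given as a description only, because the rule acts on them. An asynchronous peak that reached far enough on the side facing an HU-only region would have touched it and taken it out of the class. On the facing side the HU edge lay a median of 163 bp beyond the asynchronous edge, and on the far side 86 bp beyond it. The HU edge passed the asynchronous one by more on the facing side in 185 of the 310 cases (59.7%). Over all 11357 sites the HU edge lay 97 bp beyond the asynchronous edge at the lower-coordinate end and 95 bp at the other end. The rule acts the other way at asynchronous-only regions. In the 154 cases there the HU edge lay a median of 58.5 bp beyond the asynchronous edge on the facing side and 108 bp on the far side. Nothing is read from either lean.

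HU-only regions followed each other somewhat more often than their number in the list. The nearest HU peak was also HU-only for 141 of them (12.7%, 10.8 to 14.8%), against 1080 of the 11930 other HU peaks (9.05%, 8.54 to 9.58%). For asynchronous-only regions the values were 8.79% (6.76 to 11.2%) and 5.50% (5.1 to 5.92%). Counted as unbroken runs in the HU list, 878 HU-only regions stood singly between other HU peaks. Another 93 runs held 2, and 14 runs held 3 or more, 46 regions in all. Among the 161 regions scoring 100 or more, with weaker HU peaks left out, the nearest HU peak was HU-only for 3.73%, where HU-only regions made up 1.45% of the 11116 HU peaks left.

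The longest run held 6 HU-only regions within 13.9 kb, at chr12:96600486-96614377. They were 975 to 1883 bp wide, scored 54.7 to 89.3, and covered 58.3% of the run. Neither other list had a peak in it. At its lower-coordinate side lay a top-scoring site of all 3 lists, where the HU peak spanned 9028 bp, the asynchronous peak 7033 bp and the mimosine peak 6155 bp. There the HU peak ended at 96596148 and the asynchronous peak at 96593805, so that the HU peak reached further toward the run. From the asynchronous edge to the first HU-only region the distance was 6680 bp.

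A run of 4, at chr7:81129858-81139348, likewise bordered a broad site. Its regions scored 66.2 to 157.0, and the widest spanned 2638 bp. Between the third and the fourth lay an asynchronous-only peak of 1375 bp with a score of 52.8, so both lists held weak peaks here that did not touch. Beyond the run stood a single HU peak of 27871 bp, at which the asynchronous list held several peaks, the widest 13456 bp, and the mimosine list a larger number, the widest 9727 bp.

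The other 12 runs held 3 regions each and were of both kinds. Compact ones included chr7:84311480-84316299, with 3 regions covering 65.0% of 4.82 kb, 689 bp from an asynchronous peak. Another was chr9:128416035-128422816, with 51.8% of 6.78 kb covered, 1055 bp from an asynchronous peak. The run chr19:2187121-2196483 spanned 9.36 kb, held a region scoring 199.0 and lay 17.2 kb from the nearest peak of another list. The run chr9:94895889-94914640 spanned 18.8 kb. The remaining 8 spanned 48.9 kb or more and were runs only in the sense that no other HU peak lay between. The longest of these, chr8:111905520-116590505, spread 3 regions over 4685 kb, and chr3:188012249-190581233 spread 3 over 2569 kb.

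The most remote HU-only regions lay in such stretches with few peaks. The farthest from any other list was chr8:113685505-113687153, 1649 bp wide with a score of 97.6, at 2990 kb from an asynchronous peak, and it belongs to the chromosome 8 run above. The region chr14:42683988-42684883 (score 60.2) lay 2681 kb away. On chromosome 5, 2 adjoining HU-only regions, chr5:27472160-27473482 (score 114.0) and chr5:27473818-27474679 (score 56.5), lay 335 bp from each other and 2281 and 2283 kb from the other lists. The region chr13:63216731-63217792 (score 75.5) lay 2243 kb away. The median score was 65.6 in the 35 regions over 500 kb away and 67.2 in the 161 regions within 1 kb. The share scoring 100 or more was highest in that nearest group, at 21.7%, and ran from 12% to 15.2% in the groups beyond.

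HU-only regions were found on every autosome. As a share of the HU peaks of a chromosome they ran from 5.65% on chromosome 16 (33 of 584, 95% interval 3.92 to 7.84%) to 11.7% on chromosome 20 (42 of 359, 8.56 to 15.5%). Chromosomes 12 (11.0%) and 10 (10.9%) came next to chromosome 20, and chromosomes 9 (6.06%), 17 (6.08%) and 11 (6.18%) next to chromosome 16. For 16 of the 22 chromosomes the interval held the share over all of them, 8.51%. It lay below for chromosomes 9, 11, 16 and 17 and above for chromosomes 12 and 20. The 22 intervals are not adjusted for their number.

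Chromosomes also differ in how many weak HU peaks they hold. Peaks scoring under 100 made up 10.1% of the HU peaks of chromosome 16, 18.4% of those of chromosome 12 and 16.4% of those of chromosome 20. Of all 1924 such weak HU peaks, 949 were HU-only (49.3%, 95% interval 47.1 to 51.6%). Among them, 62.7% were HU-only on chromosome 20 (37 of 59), 51.5% on chromosome 12 (70 of 136) and 47.5% on chromosome 16 (28 of 59). The highest shares were on chromosomes 21 (70.6%, 12 of 17) and 18 (67.9%, 19 of 28), which hold few weak peaks. The gene-dense chromosomes 17 and 19 had the lowest shares, with 37.7% (43 of 114) and 38.7% (53 of 137). Among weak peaks, the share on chromosome 12 was thus near that over all chromosomes, and that on chromosome 20 was higher. Chromosomes 10 and 14 both had 17.2% weak peaks, with HU-only shares of 10.9% and 8.14% of their HU peaks. Whether the number of weak peaks accounts for the differences between chromosomes was not tested.

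**Figure D5:**
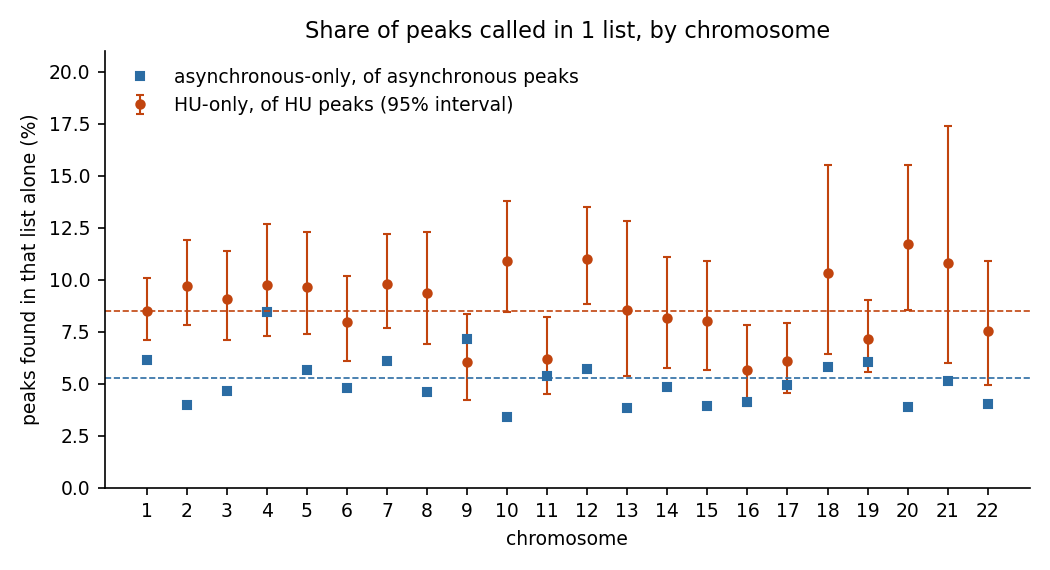
HU-only regions as a percent of the HU peaks of each chromosome (orange, exact 95% intervals) and asynchronous-only regions as a percent of its asynchronous peaks (blue squares); dashed lines give the shares over all 22 chromosomes, 8.51% and 5.26%. The HU share is the higher on every chromosome except chromosome 9.

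HU-only regions outnumbered asynchronous-only ones on 21 of the 22 autosomes, as they did in total, with 1110 against 671. The chromosomes all come from the same single libraries and are not replicates. The ratio was highest on chromosome 10, with 61 against 18, and chromosome 20, with 42 against 13. It was near 1 on chromosomes 4 (49 against 42), 11 (43 against 37) and 19 (65 against 55). Chromosome 9 was the exception, with 34 HU-only and 42 asynchronous-only regions. On chromosome 9 HU-only regions were 6.06% of HU peaks and asynchronous-only regions 7.13% of asynchronous peaks, below and above the shares over all 22 chromosomes. Chromosomes 10 and 20 showed the reverse, with 10.9% and 3.4% on chromosome 10 and 11.7% and 3.9% on chromosome 20.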

How the data were processed

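ChIP-seq peak lists of BRPF3 in asynchronous, mimosine and HU RKO cells were used, with 1 library a condition. The submitters' processing notes name Bowtie 0.12.8, SAMtools, MACS 1.4.0 and bedtools without order or settings, and the builds hg18 and hg19. The deposited lists give a position and a score for each peak; the score is the authors' own, read here as 10 times the negative log10 of a p-value from the form of the lists. On chromosomes 1 and 2, 13 HU peaks lie past the chromosome's end in hg18, 21 in GRCh38 and 0 in hg19, so positions are given as hg19. Reads and depth were not analysed here.

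Peaks of chromosomes 1 to 22 were merged and distances taken between peak edges with Python 3.11.15, pandas 2.3.3, NumPy 2.4.6 and SciPy 1.17.1; figures used matplotlib 3.10.9. Percentiles give the share of a list's peaks at or below a score. Merging and distances were tested on simulated data with planted HU-only peaks. The members, comparisons and named regions (the 10 highest scores, 5 widest, 5 farthest, 3 closest and runs of 3 or more) were chosen with earlier results of these data known. Alternatives were a score of 100 or more, merging within 1 or 5 kb, 50% overlap, no width limit, chromosome X and single partner lists. The sources used here hold no genome or annotation of this build, so genes, annotation and sequence are not given.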

Additional observations from a re-analysis of the deposited data

How the results depend on the processing

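The number of HU-only regions depended most on the score and on the partner list. A score of 100 or more in all lists left 535 HU-only and 445 asynchronous-only regions, and raised the median width of HU-only regions to 1686 bp and their median gap to 25.8 kb, with 22.8% within 5 kb of another list. By construction, this cut also makes HU-only regions of peaks whose partner scored lower. With the cut on the HU list only, 161 HU-only regions were left, of which 37.9% lay within 5 kb of another list and 3.73% had an HU-only nearest HU peak, beside a share of 1.45% of HU-only regions among the HU peaks at that cut. Merging peaks within 5 kb left 706. With the mimosine list as the only partner, 3165 HU peaks stood alone, and with the asynchronous list only, 1159. Of the 19 alternative values, 9 stayed within 1.5 times the main count or inside the interval of the main value, among them that of the asynchronous list as the only partner and that of chromosome X, which added 24 regions. The unknown read depth limits what the absence of a peak means, and most of these regions lie just above the score at which a peak is listed. No paired analysis was possible because each condition had 1 library.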
